A study of Mus musculus with 2 samples.

Results

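The genes described are the subunits of integrins and the chains of laminins, taken by name from the count files: every gene symbol of the form Itga, Itgb, Lama, Lamb or Lamc with a number, and Itgav, Itgal, Itgam, Itgax and Itgae. This rule, which uses no measured value, gave 36 of the 23284 genes in the files, 25 of them integrins and 11 laminins. They were followed in 2 RNA sequencing libraries of cultured primary hepatocytes, liver parenchymal cells, from C57BL/6 mice. One library came from cells infected with control lentivirus, labelled wild type, and the other from cells infected with lentivirus carrying an shRNA against JMJD3, the histone H3 lysine 27 demethylase encoded by Kdm6b. Both cultures were pools of cells from 5 mice, were infected 24 h after plating, and carried virus for 48 h. Both then received forskolin (Fsk), which raises cyclic AMP, at 10 µM with glucose at 5 mM for 6 h to imitate fasting, so no group lacked virus or forskolin. The labels give neither the age and sex of the mice nor the sequence of the shRNA.

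Integrins are cell surface receptors, each made of 1 alpha and 1 beta subunit, that link the extracellular matrix to the actin cytoskeleton. The alpha subunit largely sets which ligand is bound, and the beta subunit recruits talin, kindlin and the signalling proteins of adhesion sites. Laminins are the cross-shaped trimers of basement membranes, each holding 1 alpha, 1 beta and 1 gamma chain. Hepatocytes in the liver face a sinusoidal space without a continuous basement membrane, and laminin-binding integrins are better known there from bile duct epithelium and vessels.

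Depth was 11099562 counts in the control library and 18334366 in the knockdown library. Kdm6b was at 90.7 CPM (counts scaled to library size) in control and 33.0 CPM in the knockdown library, a log2 ratio of -1.46 with an interval of -1.60 to -1.31. Genes whose scaled CPM averaged 1 or more over the libraries count as measured. A measured gene was called higher or lower in the knockdown library if it differed by 1.5-fold or more and the exact binomial 95% interval of its counts excluded 1. These intervals cover counting error only, and with 1 library per group no difference below has a replicate check or a p-value of its own. Of 12607 measured genes, 15.3% were called higher and 12.8% lower, and the median log2 ratio was 0.00. Long genes had higher ratios across all genes, with a fitted log2 trend of -0.28 at an exon length of 1000 bp, 0.18 at 5000 bp and 0.44 at 10000 bp. The measured integrins and laminins had a median exon length of 5137 bp against 2871 bp for all measured genes. Values with this trend removed are therefore given beside the list medians, beside the calls that it ends, and beside those uncalled members whose ratio it moves most.

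Of the 36 genes, 26 were measured: 11 were called higher, 4 lower and 11 neither. As shares of the 26 measured genes these are 42.3% higher, against 15.3% of all genes, and 15.4% lower, against 12.8%. Because a gene can be measured through its high library alone, these shares describe the genes and are no evidence about the family. Itgb6 was the only measured member under 1 CPM in control, at 0.623 CPM, and Lama3 the only one in the knockdown library, at 0.718 CPM. Just inside the minimum were these same genes, and just outside were Itgb8 with a mean of 0.686 CPM and Lama2 with 0.626 CPM. The median log2 ratio was 0.49 for 18 measured integrins and 0.48 for 8 measured laminins. With the length trend removed the medians were 0.32 and 0.13, so that the laminin value came close to that of all genes.

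The largest ratios in both directions were those of alpha subunits, Itga2 and Itga7, whereas the common partner Itgb1 did not pass the rule of size. The bases before the RefSeq transcription start are shown for the member with the highest ratio, Itga2, for the alpha subunit most abundant over both libraries, Itga3, and for Itgb1. Each run is 250 bases on the gene's own strand in GRCm38.p6, ending at the base before the start. The windows are chr13:114932101-114932350 on the minus strand for Itga2, chr11:95076715-95076964 on the minus strand for the upstream of the RefSeq starts of Itga3, and chr8:128685404-128685653 on the plus strand for Itgb1. Capitals mark a match to a searched motif.
Itga2: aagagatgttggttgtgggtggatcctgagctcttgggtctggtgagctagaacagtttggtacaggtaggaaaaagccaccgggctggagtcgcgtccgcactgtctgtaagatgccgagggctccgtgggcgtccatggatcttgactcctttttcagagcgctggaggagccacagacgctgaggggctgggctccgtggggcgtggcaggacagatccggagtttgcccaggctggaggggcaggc
Itga3: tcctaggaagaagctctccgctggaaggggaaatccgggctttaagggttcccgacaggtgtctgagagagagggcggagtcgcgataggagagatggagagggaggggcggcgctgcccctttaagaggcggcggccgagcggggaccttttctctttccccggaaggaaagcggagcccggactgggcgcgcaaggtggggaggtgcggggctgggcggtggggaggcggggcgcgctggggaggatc
Itgb1: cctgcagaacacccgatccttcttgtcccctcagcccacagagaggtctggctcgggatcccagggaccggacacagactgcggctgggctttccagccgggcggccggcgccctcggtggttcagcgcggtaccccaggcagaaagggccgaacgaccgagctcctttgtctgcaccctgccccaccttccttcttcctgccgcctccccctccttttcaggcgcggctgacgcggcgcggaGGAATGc
The motifs searched on both strands were TGANTCA for AP-1, TGACGTCA for the cyclic AMP response element and GGAATG for TEAD factors, none of which contains another. The first and second were absent from these 3 windows, and GGAATG occurred once, its first base lying 7 bases before the start of Itgb1. Over 26 windows of the 23 members in the RefSeq table, TGANTCA was found for 1 gene, Itgax, TGACGTCA for 0 and GGAATG for 3, namely Itga10, Itgb1 and Lamb3. Among all 32851 windows of the same length, 6.75% held TGANTCA, 1.55% TGACGTCA and 12.6% GGAATG. A match in these letters is a description of the window and not a binding site. Itga6 and Itga7 had no window in that table.

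The laminin-binding alpha subunits Itga3, Itga6 and Itga7 differed in opposite directions. Itga7, best known as the laminin receptor of muscle, had 1604 counts or 143 CPM in control and 283 counts or 15.6 CPM in the knockdown library. It was the lowest member, with a log2 ratio of -3.19 (-3.38 to -3.01), at rank 105 from the lowest of 12607 measured genes. Itga3, an epithelial laminin receptor, had 1837 counts or 163 CPM in control and 9052 counts or 499.9 CPM in the knockdown library. Its log2 ratio was 1.61 (1.54 to 1.69), a 3.06-fold higher level. Itga6, which can pair with Itgb1 or Itgb4, had 9.25 CPM in control and 37.2 CPM in the knockdown library, from 104 and 674 counts. It was 4.02-fold higher, at a log2 ratio of 2.01 (1.71 to 2.32).

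Per kb of exon, the scale on which genes can be compared, Itga7 and Itga3 were nearly equal in control, at 35.5 and 33.7 CPM per kb. In the knockdown library they stood at 3.89 and 103 CPM per kb, so the ratio of Itga3 to Itga7 went from 0.949 to 26.5. Itga7 made up 49.7% of the laminin-binding alpha subunits in control and 3.36% in the knockdown library, while Itga3 went from 47.2% to 89.0%. The summed level of the laminin-binding subunits was 71.4 CPM per kb in control and 116 CPM per kb in the knockdown library, 1.62-fold higher. In mm9 coordinates Itga7 spans chr10:128370869-128395340 (plus strand, 25 exons in the files), and 8 bp of its exons overlap those of Mettl7b. Itga3 spans chr11:94905796-94938028 (minus strand) and Itga6 chr2:71625140-71694815 (plus strand), both with 26 exons. In the authors' deposited table the adjusted p-values were 6.86e-39 for Itga7, 1.07e-12 for Itga3 and 9.19e-14 for Itga6, for a test and a spread that no source used here states.

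**Figure D1:**
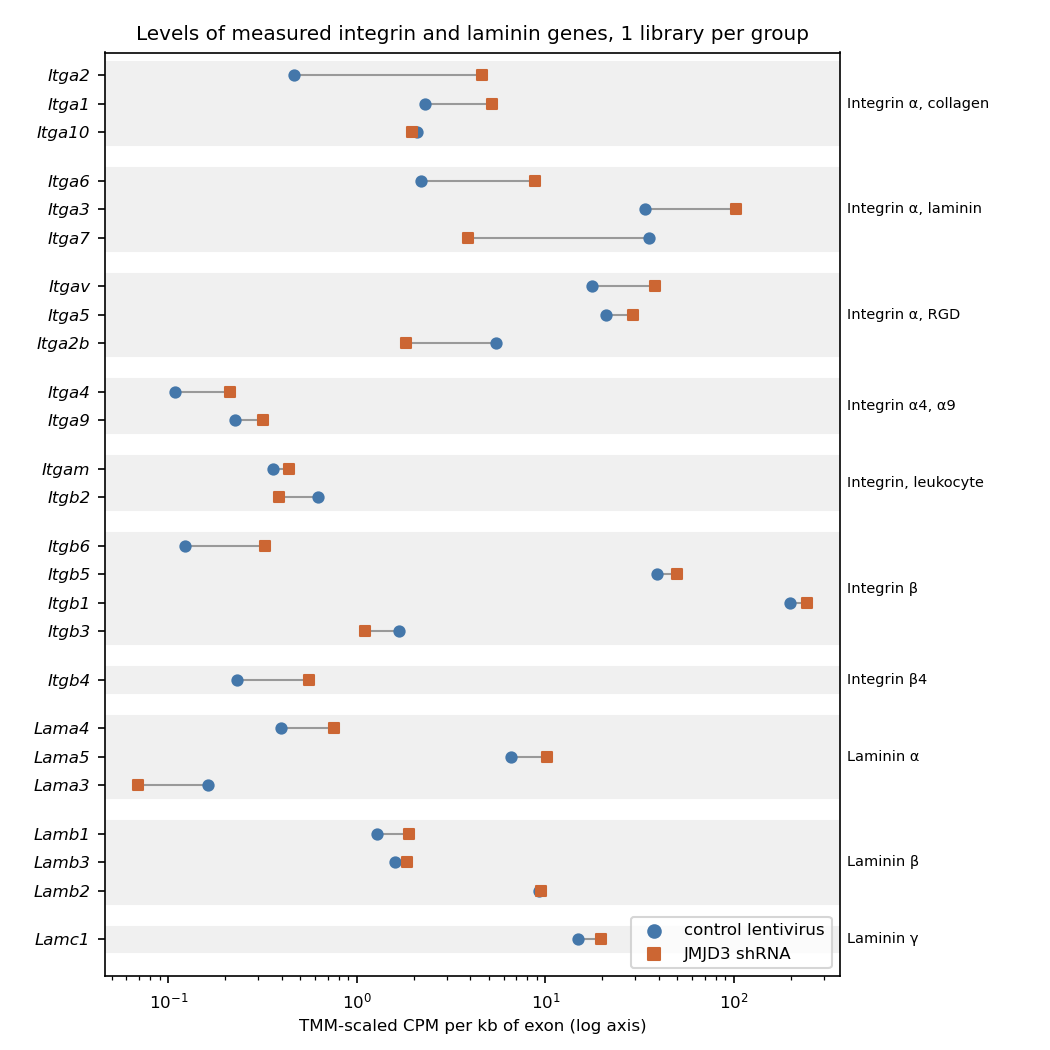
Level of each measured integrin and laminin gene reported here in TMM-scaled CPM per kb of exon on a log axis, for the control library (circles) and the JMJD3 shRNA library (squares), joined by a line and grouped by role. Itga3 and Itga7 lie close together in control, at 33.7 and 35.5 CPM per kb, and far apart in the knockdown library, at 103 and 3.89, while Itgb1 stays the most abundant gene at 198 and 243.

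Among collagen-binding alpha subunits, Itga2 had the largest ratio of all members. It had 22 counts or 1.96 CPM in control and 352 counts or 19.4 CPM in the knockdown library. The level was 9.93-fold higher, with an interval of 6.46 to 16.1, and Itga2 held rank 31 from the top among 12607 measured genes. Itga1, the other widely expressed collagen receptor, had 13.8 CPM in control and 31.0 CPM in the knockdown library, from 155 and 561 counts, a log2 ratio of 1.17 (0.91 to 1.43). Itga10, a collagen receptor best known from cartilage, had 10.5 and 9.94 CPM and an interval that included no difference. Itga11, a fibroblast collagen receptor, had 2 and 5 counts and was not measured.

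The gene neighbours Itga2 and Itga1 were thus both higher. In mm9 both are transcribed from the minus strand, Itga2 at chr13:115626120-115722249 and Itga1 at chr13:115748289-115892172, with 26039 bp between them. Per kb, Itga1 exceeded Itga2 by 4.97-fold in control and by 1.12-fold in the knockdown library. Summed over the class, the collagen-binding subunits were at 4.89 CPM per kb in control and 11.8 CPM per kb in the knockdown library.

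Of the alpha subunits that bind the RGD motif of fibronectin, vitronectin and fibrinogen, Itgav was higher, Itga2b lower and Itga5 between the limits. Itgav, which pairs with Itgb1, Itgb3, Itgb5, Itgb6 or Itgb8, had 124 CPM in control and 270.2 CPM in the knockdown library, from 1397 and 4893 counts. This gave a log2 ratio of 1.12 (1.03 to 1.21). Itga5, the fibronectin receptor subunit, had 91.3 and 127 CPM, a 1.39-fold higher level whose interval of 1.29 to 1.5 excluded 1 without reaching the required size. Itga2b, the platelet fibrinogen receptor subunit, had 18.9 CPM in control and 6.30 CPM in the knockdown library, from 212 and 114 counts, a log2 ratio of -1.58 (-1.92 to -1.25). Its partner Itgb3 was lower too, at 9.70 and 6.41 CPM with a log2 ratio of -0.60 (-0.99 to -0.21). The Itgb3 ratio was just past the required size and did not pass a 2-fold limit. Itga8 had 2 and 3 counts.

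Markers of platelets and of blood cells were near 0 in both libraries. Of 11 such genes sought, 0 reached the minimum, their summed level was 2.49 CPM in control and 1.66 CPM in the knockdown library, and the platelet genes Pf4, Ppbp and Gp1bb had at most 9 counts each. Per kb, Itga2b was at 5.49 CPM in control and 1.83 CPM in the knockdown library, and Pf4, the highest of these platelet genes, at 1.21 and 0.845. Which cells the Itga2b RNA came from was not tested.

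**Figure D2:**
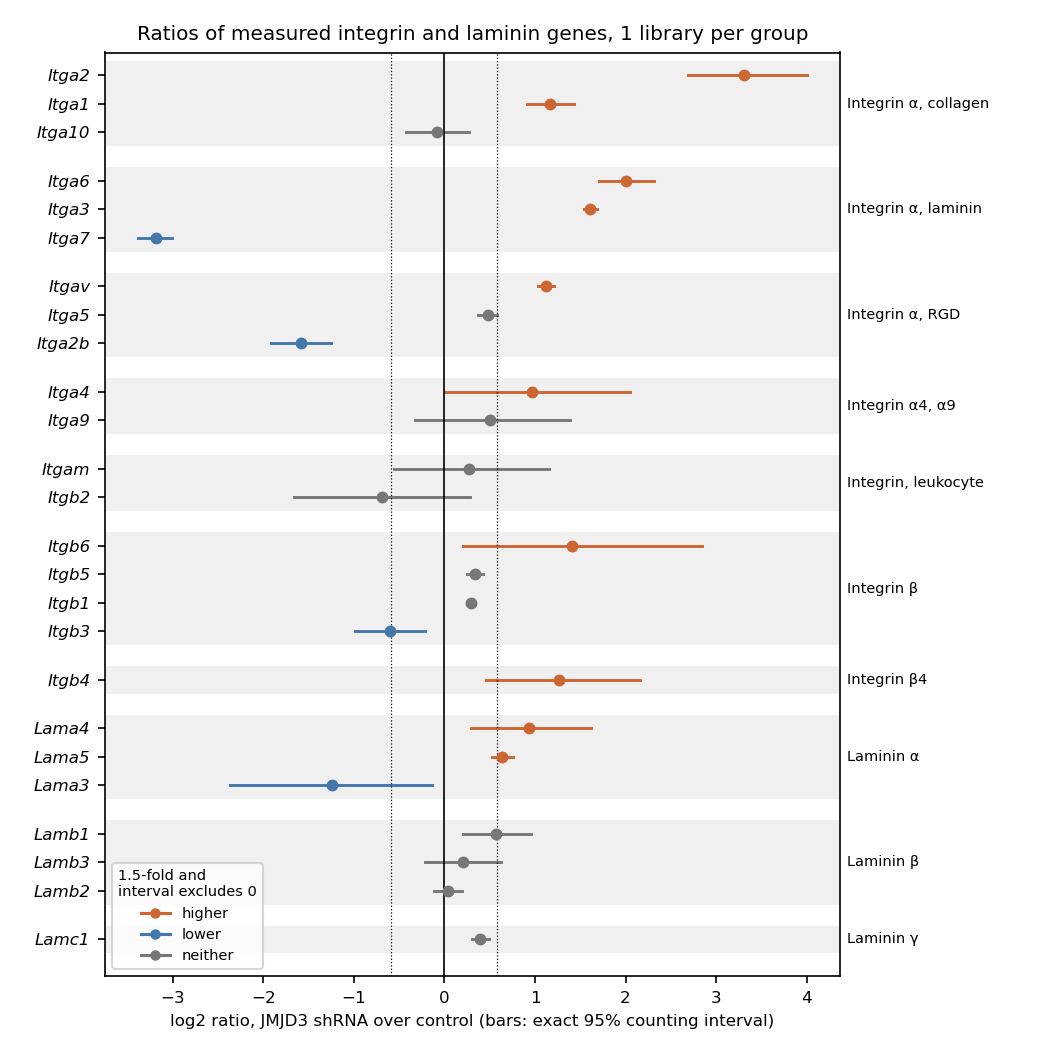
Log2 ratio of the JMJD3 shRNA library over control for each measured member reported here, with bars for the exact 95% counting interval and dotted lines at 1.5-fold in either direction. Points run from Itga7 at -3.19 to Itga2 at 3.31, and the beta subunits Itgb1 and Itgb5 sit just right of 0 with short bars.

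The abundant beta subunits differed little between the libraries. Itgb1, partner of most alpha subunits, had 9329 counts or 830.0 CPM in control and 18439 counts or 1018 CPM in the knockdown library. The 1.23-fold ratio had a narrow interval of 1.20 to 1.26 and did not reach the required size. Its log2 ratio was 0.29, or 0.18 with the length trend removed. Itgb5, a partner of Itgav only, had 129 and 163 CPM, a log2 ratio of 0.34 (0.25 to 0.43). Together Itgb1 and Itgb5 accounted for nearly all of the beta subunit level, with shares of 82.4% and 16.4% per kb in control and 82.2% and 16.8% in the knockdown library. The summed alpha subunits were at 121 CPM per kb in control and 198 in the knockdown library, and the summed beta subunits at 240.1 and 295. The ratio of the alpha sum to the beta sum was therefore 0.505 in control and 0.671 in the knockdown library.

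Rarer beta subunits of epithelia had higher values on few counts. Itgb4, which pairs with Itga6 alone and anchors hemidesmosomes, had 16 counts in control and 62 in the knockdown library, a log2 ratio of 1.27 (0.46 to 2.16). Of the Itgb4 exons, 55 bp overlap those of Galk1. Itgb6, which with Itgav binds latent TGF-beta, had 7 and 30 counts, a log2 ratio of 1.41 (0.20 to 2.84). Itgb6 no longer passed when each interval was computed from counts divided by 2, as if every read had been counted with its mate. Itgb8, the other subunit known for binding latent TGF-beta, had 3 and 20 counts and was not measured, its ratio of 4.14 having an interval of 1.23 to 21.7. The transcript of the ligand itself, Tgfb1, named after its values were seen, was at a log2 ratio of 0.83 (0.62 to 1.04).

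Itga4 and Itga9, which bind VCAM-1 and tenascin respectively among other ligands, had little RNA. Itga4, 166 bp of whose exons overlap those of Cerkl, had 12 counts in control and 38 in the knockdown library. Its call as higher rested on an interval that only just excluded 1 (log2 0.01 to 2.05), and it was lost with the length trend removed (log2 0.55), with library totals or upper-quartile scaling, and with counts divided by 2. Itga9 had 18 and 41 counts with an interval that included no difference, and its log2 ratio of 0.50 was 0.20 with the length trend removed. The leukocyte subunits were low throughout. Itgb2 had 20 counts in each library and Itgam 19 and 37, neither differing beyond its interval. Itgal, Itgax, Itgae and Itgb7 had at most 9 counts in either library and were not measured. The leukocyte subunits summed to 5.07 CPM in control and 4.75 CPM in the knockdown library. Of 9 macrophage markers found, 6 were measured, with 0 called in either direction and summed levels of 27.5 and 28.7 CPM. Csf1r had 111 counts in control and 187 in the knockdown library, a log2 ratio of 0.06 after scaling. Clec4f, which defines Kupffer cells, had 0 counts in both.

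Log2 ratios of the measured laminin chains ran from -1.24 to 0.93, and those of the integrins from -3.19 to 3.31. Lama5, the main alpha chain of adult epithelial and vascular basement membranes, had 836 counts or 74.4 CPM in control and 2106 counts or 116 CPM in the knockdown library. This was 1.56-fold higher, the interval being 1.44 to 1.70, just past the required size. Lama5 has the longest exon length among the members, 11388 bp, and with the length trend removed its log2 ratio went from 0.64 to 0.17 and no longer passed. Lama4, the alpha chain of vessels and mesenchymal cells, had 2.40 and 4.58 CPM on 27 and 83 counts, a log2 ratio of 0.93 (0.29 to 1.62). The Lama4 ratio did not pass a 2-fold limit. Lama3, the alpha chain that anchors epithelia, was lower, with 19 counts in control and 13 in the knockdown library and a log2 ratio of -1.24 (-2.37 to -0.14). That interval included 1 once counts were divided by 2. Lama1 and Lama2, typical of embryonic tissue and of muscle, had 4 and 3 counts and 6 and 13 counts.

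None of the 3 beta chains was called in either direction. Lamb2, the most abundant, had 51.8 and 53.2 CPM and an interval that included no difference. Its log2 ratio of 0.04 was -0.17 with the length trend removed. Lamb1 had 83 and 199 counts, a 1.49-fold ratio (interval 1.15 to 1.95) just short of the limit, and it passed with DESeq2 size factors. Its log2 ratio of 0.57 was 0.35 with the length trend removed. Lamb3 had 73 and 135 counts with an interval that included 1. Lamc1, the gamma chain shared by most laminins, had 114 and 149 CPM, a log2 ratio of 0.39 (0.30 to 0.49) that was 0.07 with the length trend removed. Lamc3 had 2 counts in control and 0 in the knockdown library.

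Per kb, Lama5 and Lamb2 led their classes in both libraries. Lama5 held 90.9% of the alpha chain level in control and 91.7% in the knockdown library, and Lamb2 76.2% and 71.7% of the beta chains. The ratio of the knockdown library to control was 1.55 for the summed alpha chains and 1.09 for the summed beta chains. These sums are not corrected for length and follow Lama5 and Lamb2, whose log2 ratios were 0.17 and -0.17 with the length trend removed. The make-up of the integrin alpha subunits, by contrast, went from a mix led by Itga7 at 29.3% and Itga3 at 27.8% to one in which Itga3 held 52.0% and Itga7 1.96%. The difference between these changes in make-up was not tested, since each class has 1 value per group.

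**Figure D3:**
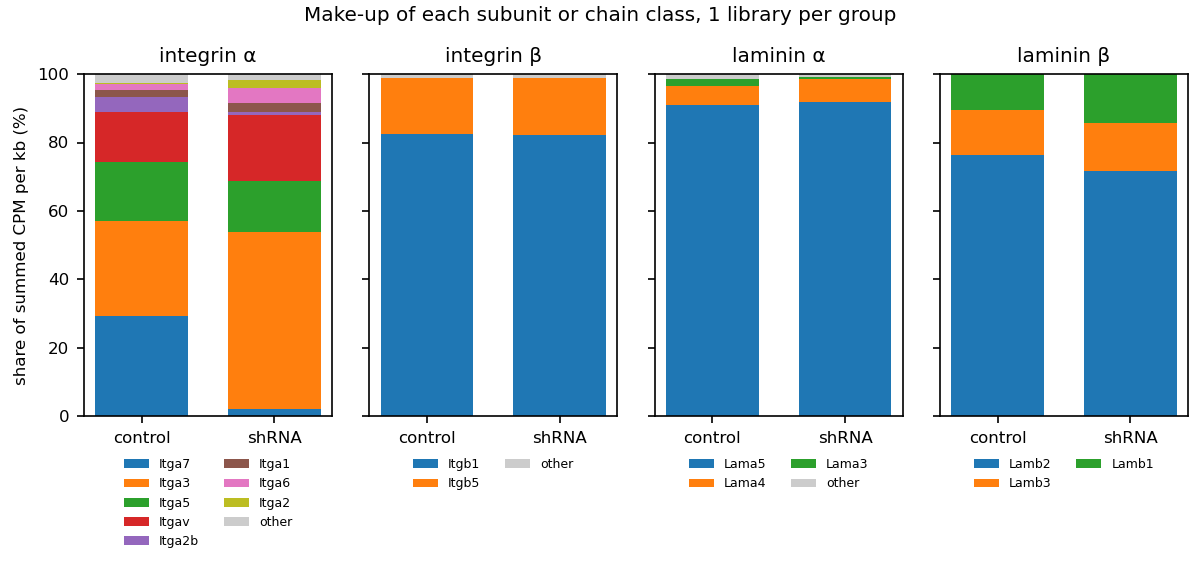
Share of each gene in the summed CPM per kb of its class (stacked bars, percent) in the control and JMJD3 shRNA libraries, for integrin alpha and beta subunits and laminin alpha and beta chains. Genes under 2% in both libraries are joined as other. The first panel shows Itga7 going from 29.3% to 1.96% and Itga3 from 27.8% to 52.0%, while the bars of the other 3 classes look alike in both libraries.

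The authors' deposited table held 27 of the 36 genes. With adjusted p-values under 0.05 as the limit, the authors' deposited table called 8 members with a positive fold change, where 14.6% of its 12838 genes were so called. It called 2 with a negative fold change, where 11.8% of all genes were. Among the 8 were Itga1, Itga2, Itga3, Itga6, Itgav, Itgb4 and Lama5, and the 2 were Itga2b and Itga7. All 10 were called in the same direction by the rule of size, which also called Itga4, Itgb6 and Lama4 higher and Itgb3 and Lama3 lower.

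Genes of the adhesion sites that integrins recruit were higher more often than lower in the knockdown library. Of 32 measured genes, 19 or 59.4% were called higher, against 15.3% of all genes, and 2 or 6.25% lower, against 12.8%, with a median log2 ratio of 0.78, or 0.59 with the length trend removed. The most abundant per kb were the actin crosslinkers Flna and Actn4, at log2 ratios of 0.98 and 0.96. Tgfb1i1, the paxillin relative Hic-5, was the highest at 2.18 on 30 and 219 counts. Itgb1bp1, which competes with talin for the tail of Itgb1, was the lowest, with 480 counts in control and 337 in the knockdown library and a log2 ratio of -1.20. Chosen after their values were seen, talin Tln1 was at 1.38, vinculin Vcl at 1.03 and kindlin-2 Fermt2 at 0.61. Likewise chosen, focal adhesion kinase Ptk2 at 0.56 and Tln2 at -0.02 were not called, and Nedd9, the other gene called lower, was at -0.68.

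Other basement membrane genes held both calls. Of 17 measured, 9 or 52.9% were called higher, against 15.3% of all genes, and 3 or 17.6% lower, near the 12.8% of all genes, with a median log2 ratio of 0.66, or 0.43 with the length trend removed. Nid1, which links laminin to collagen IV, was the highest at 1.26 on 4050 and 15628 counts. Collagen IV chains Col4a1 and Col4a2, named after their values were seen, were both at 0.66. Smoc1, a calcium-binding matrix protein and the most abundant of the list per kb over both libraries, was lower at -2.51. It had 180.1 CPM per kb in control and 31.6 in the knockdown library. Col15a1 was the lowest at -2.65, and Ntn4, a laminin-related netrin named after its values were seen, was at -1.09.

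Ligands of integrins other than laminins had no common direction. Of 28 measured, 9 or 32.1% were called higher and 6 or 21.4% lower, against 15.3% and 12.8% of all genes, with a median log2 ratio of -0.04, or -0.15 with the length trend removed. Osteopontin, Spp1, the most abundant per kb, was at 0.04, the fibrinogen chains Fgb and Fgg at -2.24 and -2.84, and Ctgf, the highest, at 5.62. Fibronectin, Fn1, the ligand of Itga5, was at 0.76, and vitronectin, Vtn, the ligand of Itgav, at -1.48, both named after their values were seen. Of 14 other laminin receptors and hemidesmosome genes, 5 or 35.7% were called higher and 1 or 7.14% lower, against the same shares of all genes, the median being 0.00, or 0.11 with the length trend removed. The laminin-binding ribosomal protein Rpsa was at -0.26 and the tetraspanin Cd151, which binds Itga3 and Itga6, at 0.05. The highest was Utrn at 1.29 and the lowest the proteoglycan Sdc1 at -1.13. Plectin, Plec, the hemidesmosome linker of Itgb4, was at 1.13 and Col17a1 had 0 counts in both libraries, both named after their values were seen.

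**Figure D4:**
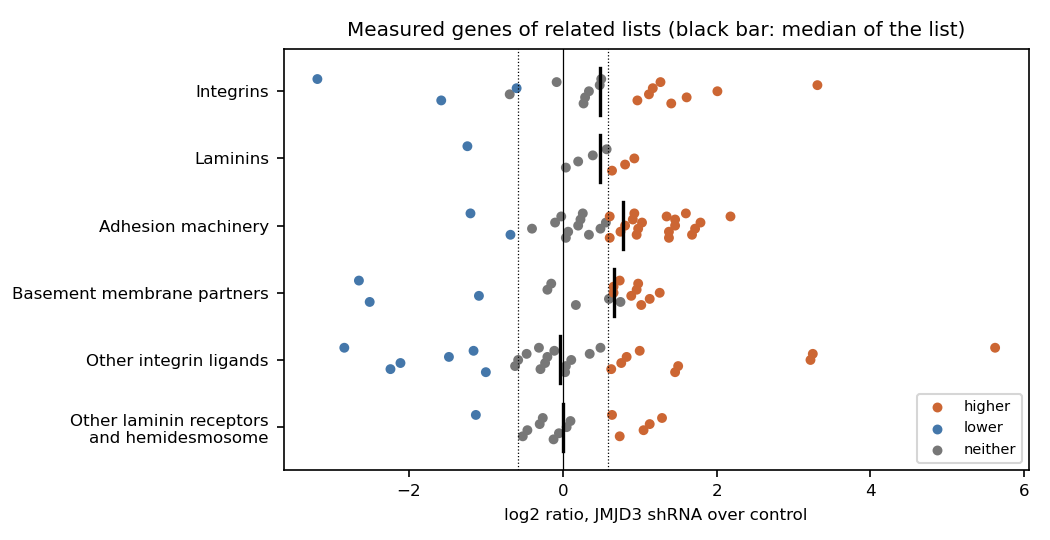
Log2 ratio of the JMJD3 shRNA library over control for each measured gene (point) of the integrins, the laminins and 4 lists of related genes, with a black bar at each median and dotted lines at 1.5-fold. Medians lie at 0.49, 0.48, 0.78 and 0.66 in the upper 4 rows and at -0.04 and 0.00 in the lower rows.

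The labelled cell type was checked against marker lists, because integrins and laminins differ between liver cell types. In bulk RNA, fewer cells of a type and less RNA per cell cannot be told apart. All 10 hepatocyte markers were measured, 6 of them lower, 1 higher and 3 neither in the knockdown library. Their summed level was 13430 CPM in control and 8586 in the knockdown library. The markers did not move together. Fgb had 3987 CPM in control and 846.4 CPM in the knockdown library, and Tat 1514 and 82.9 CPM. Trf was level at 4281.5 and 4254.3 CPM, and Apob, the marker called higher, was at a log2 ratio of 0.78. Of 9 bile duct epithelial markers, 7 were measured, 3 higher and 1 lower, with Krt7 at 1.65, Krt19 at 0.60, Sox9 at 0.59, Epcam at 0.01 and Prom1 at -1.06. Their summed level, almost all of it Spp1, was 8120 and 8443 CPM. Stellate cell and fibroblast markers had 0 higher and 3 lower of 8 measured, with sums of 209 and 199 CPM. Col1a1 had 965 counts in control and 1582 in the deeper knockdown library, a log2 ratio of 0.03 after scaling. Reln had 141 and 17 counts, at -3.74, and Lrat 1 and 2 counts. Endothelial markers had 1 higher and 2 lower of 8 measured, with sums of 59.9 and 57.0 CPM. Cdh5 had 205 counts in control and 287 in the knockdown library, a log2 ratio of -0.20 after scaling, and Clec4g 2 counts in each. The part of these cell types in the integrin and laminin values was not tested.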

How the data were processed

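Sequencing gave 100 bp paired-end reads, per the labels. The deposited files hold whole-number read counts per gene, made by the authors with featureCounts 1.4.6-p4 from STAR alignments on UCSC mm9 gene models, without strand and without an option for read pairs, per the file headers. The submitters' processing notes name Trimmomatic 0.36, STAR 2.5.3a and edgeR. The authors' deposited table gives log2 fold changes, average log2 CPM, p-values and adjusted p-values, with no stated test. Gene length is the summed exon length in the deposited files.

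TMM factors from edgeR 4.0.16 (R 4.3.3) scaled the library totals. Log2 ratios of counts above 0 used no pseudocount, and the intervals are exact conditional binomial (Clopper-Pearson). A count of 0 was set to 3 counts for the ratio only, while its interval kept the 0. Among the members this touched only Lamc3, which was not measured. The length trend is a lowess fit (statsmodels 0.14.6, fraction 0.3) over measured genes. The procedure was tested on simulated data that held counting error only, so the test says nothing about spread between cultures. Promoter windows are from RefSeq, GRCm38.p6, matched by symbol for 23 of 36 genes, and were not mixed with mm9 coordinates. The samples were grouped by title, and nothing in the labels gives replicates. The members, gene lists, motifs and the rule for named genes (every member, and in each list of related genes the 2 most abundant per kb, the highest and the lowest, with others marked in the text) were chosen with earlier results of these data known. Alternatives were 3 scalings, 2 filters, the length trend, overlapping genes left out, a 2-fold limit, the authors' adjusted p-values and edgeR's exact test with assumed spreads. Intervals from counts divided by 2 were added after the data were seen. The values of 1 member, which is counted in the totals, are not reported here.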

Additional observations from a re-analysis of the deposited data

How the results depend on the processing

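With 1 library per group no replicate could be left out. No paired analysis was possible because each group has 1 sample. Of the 26 measured members, 11 were called higher and 4 lower. The count higher was 7 with a minimum of 5 CPM, which tests 18 members, and 7 with a 2-fold limit. Among the higher calls that the 2-fold limit ended were those of Itga4, Lama4 and Lama5. The count higher lay between 9 and 12 under the other scalings, filters, length and overlap settings and with counts divided by 2. The count lower was 3 or 4 under all of these, and 2 in the authors' deposited table. Rerun with an assumed spread (biological coefficient of variation) of 0.2, edgeR's exact test called 3 higher, Itga2, Itga3 and Itga6, and 2 lower, Itga2b and Itga7, against 465 and 457 among 12607 genes. With 0.4 it called 0 higher and 0 lower, against 18 and 75. The laminin median was 0.13 with the length trend removed, against 0.48, and the integrin median 0.32, against 0.49. No member's ratio changed sign with a call. Low depth limits the calls of Itgb4, Itgb6, Itga4 and Lama3, which had at most 19 counts in at least 1 library. The same holds for the counts of the measured but uncalled Itga9 and Itgam.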
